A study of Mus musculus with 4 samples.

Results

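Collagen genes were followed in single cells from the proximal end of the mouse lower incisor at postnatal day 15 (P15). Every gene symbol in the count files with the form Col, a number, a and a number was taken, which gave 44 genes of 32285, each with 1 identifier and each with at least 1 UMI in the cells kept. UMIs are molecular identifiers that count captured transcripts, and levels are given as counts scaled to 1e6 UMIs (CPM) summed over the cells of a class in a library. Tissue was compared between 2 WT libraries (WT 1 and WT 2) and 2 Din-KO libraries (Din-KO 1 and Din-KO 2). Din-KO mice carry a conventional knockout of din (4930453N24Rik) in every cell, made from a KOMP gene-trap allele that removes exon 2 and carries a LacZ reporter, WT mice lack it, and the strain, the sex and the number of mice behind a library are not given in the sources used here. The p-values below therefore measure the spread between these libraries. The 44 genes held 1903676 of the UMIs in kept cells, 1.38% of the total, and Col1a1, Col1a2 and Col3a1 alone made up 44.7%, 20.5% and 11.7% of the collagen UMIs.

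Collagens are triple-helical proteins of the extracellular matrix, assembled in the endoplasmic reticulum from chains that each gene encodes separately. Fibril-forming collagens give tensile strength, and type I collagen, built from the products of Col1a1 and Col1a2, is the main protein of dentin, bone and cementum. FACIT collagens sit on the surface of fibrils, network-forming type IV collagen is the scaffold of basement membranes, and beaded filament, hexagonal network, anchoring fibril, transmembrane and multiplexin collagens connect cells with their surroundings. In the growing incisor, pulp fibroblasts lie next to odontoblasts, which lay down a matrix of type I collagen that later mineralises.

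The libraries differed in depth and in make-up. WT 1 and Din-KO 1 gave 3903 and 4575 cells that passed the filters, WT 2 and Din-KO 2 gave 1560 and 1272, total UMIs ran from 32198098 to 54348039, and no library pair shared more than 4 barcodes among kept cells. Cells were clustered without the collagen genes and named from markers that hold no collagen, and clusters led by Amelx and Enam of ameloblasts and by Dmp1 and Bglap of odontoblasts and osteoblasts were among them. Mesenchyme-like cells numbered 2652, 845, 3028 and 631 in WT 1, WT 2, Din-KO 1 and Din-KO 2, and values in a row follow this order throughout. Dental pulp-like cells made up 1689, 222, 1790 and 155 of them and dental follicle-like cells 316, 413, 317 and 278, so that the replicate 1 libraries were rich in pulp and the replicate 2 libraries in follicle. The small classes were perivascular-like (25, 18, 24 and 10 cells), glia-like (14, 15, 20 and 45 cells) and monocyte or dendritic-like (35, 8, 38 and 19 cells). The targeted gene din stood at 36.3, 28.5, 22.7 and 28.3 CPM in mesenchyme-like cells, but counts per gene do not show where in the transcript the tags lie, so they do not check the loss of exon 2. UMIs of Y-linked genes were found in 0.113, 0.118, 45.5 and 47.4% of mesenchyme-like cells, so that such cells were common in the Din-KO libraries and rare in the WT libraries. Of the mesenchyme-like cells, 2605, 805, 1088 and 285 had Xist UMIs numbering at least 3 without a UMI of the Y-linked genes. The genotype comparison was also made on these for mesenchyme-like cells as a whole, and for no subclass or other class. Genotype and the share of cells with Y-linked UMIs differed together, so outside that comparison their effects cannot be told apart.

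Of the 44 chains, 29 were highest in the same class in all 4 libraries, among 9 classes with at least 8 cells in each. Mesenchyme-like cells held 13 of these, perivascular-like cells 6, epithelium-like cells 5, glia-like cells 4 and endothelium-like cells 1, and no chain was highest in a blood cell class in all 4. With cells classed one by one, 5 chains were highest in mesenchyme-like cells in all 4 libraries among 14 classes, and 7 among the same 9 classes. Col2a1, Col4a6, Col6a5, Col9a2, Col25a1 and Col26a1 were lost in either case, and Col8a2 and Col12a1 among the 14. Classes came from clusters of the same cells, so the order of classes is a description without a test. Collagens took up 0.999, 4.36, 1.07 and 3.65% of the UMIs of mesenchyme-like cells, 1.34, 2.10, 1.34 and 1.57% in perivascular-like cells, 0.641, 1.09, 0.660 and 0.753% in endothelium-like cells and 0.166, 0.154, 0.156 and 0.276% in epithelium-like cells. The share in mesenchyme-like cells was higher in WT 2 and Din-KO 2 than in either replicate 1 library.

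**Figure D1:**
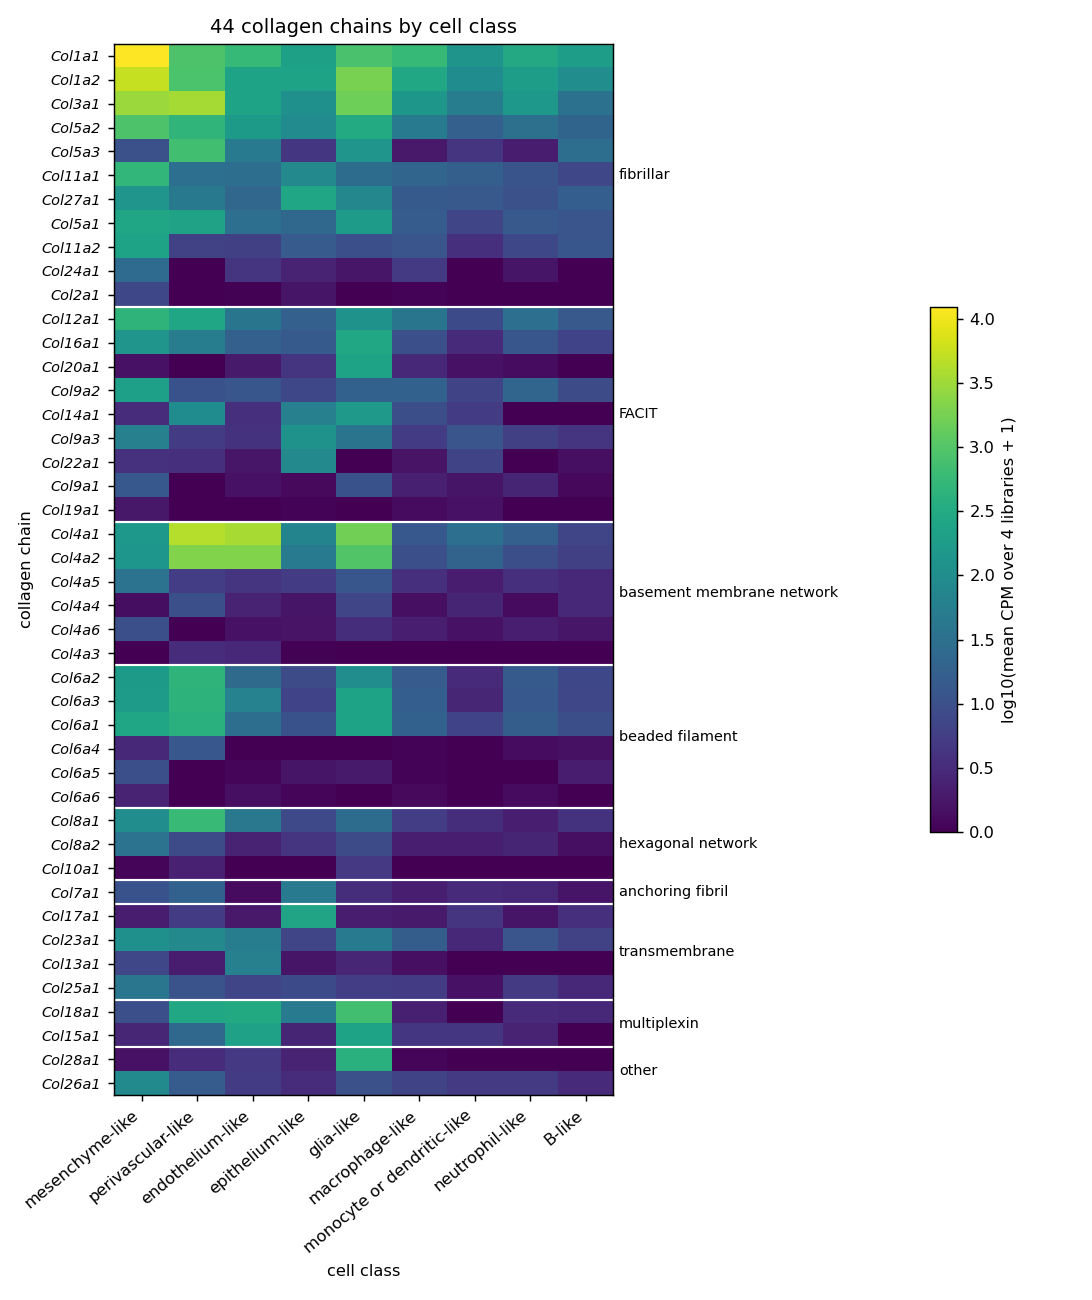
Mean level over the 4 libraries of each of the 44 collagen chains (rows, grouped by role) in each of 9 cell classes (columns), coloured as log10 of CPM plus 1. Col1a1 and Col1a2 were brightest in mesenchyme-like cells, Col4a1 and Col4a2 in perivascular-like and endothelium-like cells, Col17a1 in epithelium-like cells, and Col20a1 and Col28a1 in glia-like cells.

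Type I collagen led the fibrillar chains. Col1a1 (ENSMUSG00000001506, chromosome 11, 94936224 to 94953042, plus strand, GRCm38) stood at 3441, 22787, 4704 and 18493 CPM in mesenchyme-like cells. Col1a2 (ENSMUSG00000029661, chromosome 6, 4504814 to 4541544, plus strand) stood at 2064, 9279, 2192 and 8397 CPM. Mesenchyme-like cells held 96.3 to 98.5% of all Col1a1 UMIs in a library and 94.2 to 97.4% of all Col1a2 UMIs. The replicate 2 libraries were several-fold above the replicate 1 libraries in each genotype, and the WT and Din-KO values overlapped. The nearest other class by mean was perivascular-like for Col1a1 at 582, 1543, 598 and 875 CPM and glia-like for Col1a2 at 1156, 3668, 744 and 1964 CPM.

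Col3a1, the single chain of type III collagen of soft connective tissue, did not follow type I. It stood at 1496, 5179, 1099.6 and 4341 CPM in mesenchyme-like cells and 2421, 5816, 2419.8 and 3478 CPM in perivascular-like cells. Perivascular-like cells were the higher of these classes in every library but Din-KO 2, where they numbered 10. Col5a3, a type V chain, was highest in perivascular-like cells in all 4 libraries at 693, 801, 516 and 814 CPM against 5.25, 16, 4.81 and 11.8 CPM in mesenchyme-like cells, and these ranges did not overlap. Col11a1, a type XI chain that takes part in the nucleation of fibrils, was highest in mesenchyme-like cells at 292, 788, 283 and 673 CPM. Its partner Col11a2 (27.1 to 527 CPM) and Col24a1 (10.7 to 40.1 CPM) were also highest there. Col27a1, a fibrillar chain of cartilage and tooth, was highest in epithelium-like cells in all 4 libraries. It stood at 310.2, 273, 243 and 239 CPM in these and 46.9, 199.6, 77.5 and 218 CPM in mesenchyme-like cells.

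Col2a1, the type II chain of cartilage, gave a level that rested on 1 cell. In WT 1, 519 of its 556 UMIs (93.3%) came from 1 cell of the Bglap and Bglap2 cluster with 36723 UMIs in all, which had no UMI of Acan, Cnmd or Matn1, markers of cartilage. The mesenchyme-like level of WT 1 was 19.6 CPM with that cell and 1.21 CPM without it, and the other libraries held 38, 102 and 27 UMIs in WT 2, Din-KO 1 and Din-KO 2.

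Within mesenchyme-like cells, 14 clusters were compared, each named by 2 of its leading genes, and 13 of them had at least 8 cells in every library. Of the 44 chains, 24 were highest in the same cluster in all 4 libraries, with 8 in the Spp1 and Mmp13 cluster, 5 in the Bglap and Bglap2 cluster, 5 in the Cnmd and Gpha2 cluster, and 2 each in the Dmp1 and Ifitm5, Smoc2 and Shisa2, and Bmp3 and Dkk2 clusters. The Bglap and Bglap2 cluster, whose markers are those of odontoblasts and osteoblasts alike, held 10, 66, 16 and 43 cells, and collagens made up 12.8, 16.3, 14.6 and 14.9% of its UMIs. Col1a1 stood there at 79337, 120316, 105881 and 108189 CPM and Col1a2 at 36232, 30219, 31382 and 29047 CPM, the former the highest level of any chain in any of these clusters. The next cluster for Col1a1 was the Dmp1 and Ifitm5 cluster, also odontoblast or osteoblast-like, at 18373, 56519.6, 34512 and 50300.3 CPM. Col11a1 followed in the Bglap and Bglap2 cluster at 3818, 3485, 3121 and 3169 CPM, and Col5a2 and Col11a2 stood at 2433 to 3394 and 1340.3 to 4121 CPM.

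This small cluster carried a large part of type I collagen. It held 0.377, 7.81, 0.528 and 6.81% of mesenchyme-like cells and 14.9, 59.1, 27.4 and 48.5% of their Col1a1 UMIs. For Col1a2 its share was 11.3, 36.5, 17.4 and 28.7%, and for Col3a1 0.121, 0.853, 0.0225 and 0.710%. The replicate 2 libraries, where the summed level of Col1a1 was higher, also held more of these cells in either genotype, and the part of this in the summed level was not tested. Within the cluster the lowest and highest Col1a1 levels were those of WT 1, with 10 cells, and WT 2, with 66 cells, and the Din-KO libraries lay between them.

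**Figure D2:**
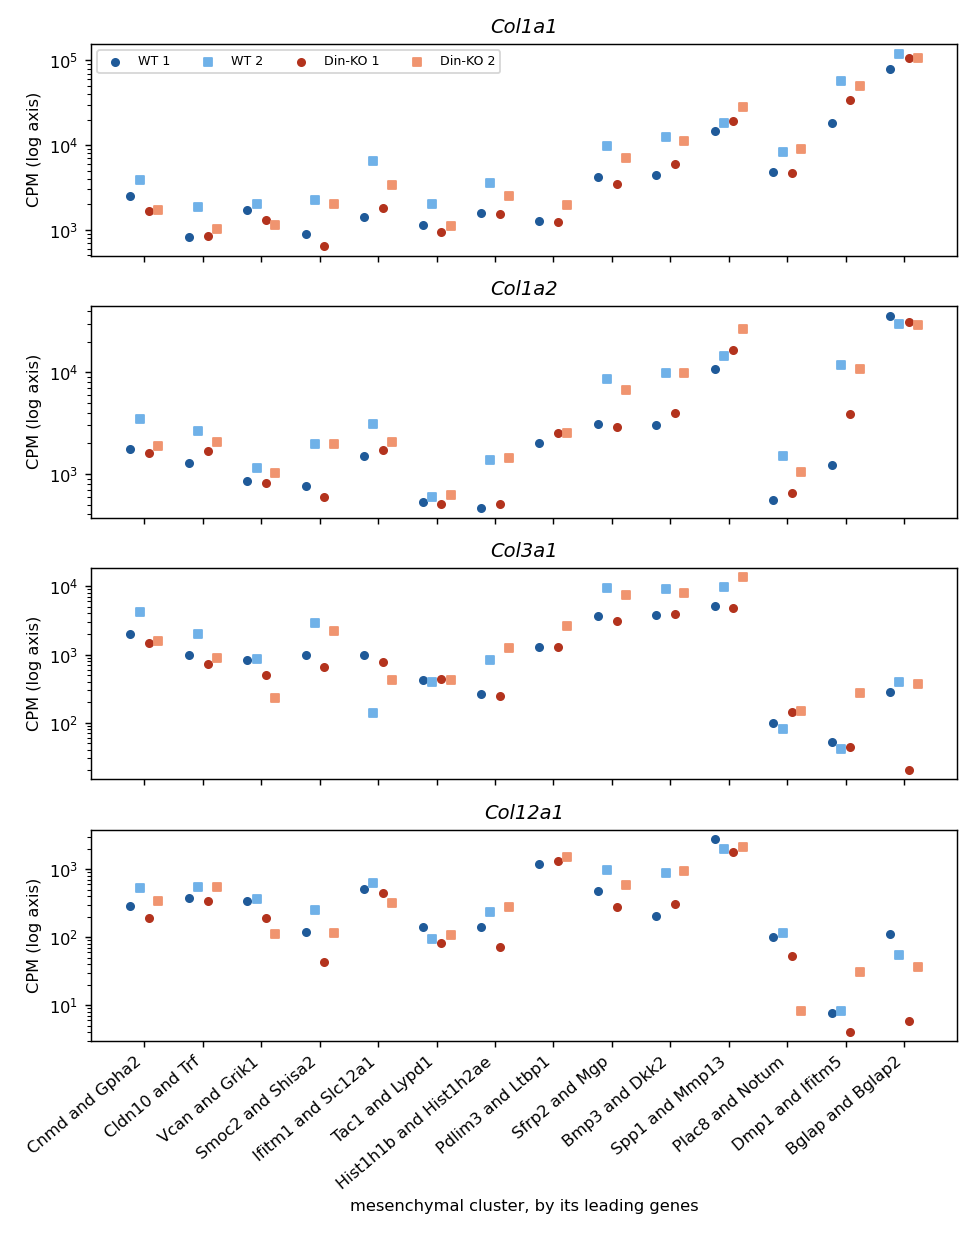
CPM (log axis) of Col1a1, Col1a2, Col3a1 and Col12a1 in each library for the 14 mesenchyme-like clusters, with 1 point a library. The Pdlim3 and Ltbp1 cluster has no WT 2 point because it held 3 cells there. Col1a1 was highest in the Bglap and Bglap2 cluster, at 79337 to 120316 CPM, where Col3a1 stood at 20.4 to 394 CPM, and Col3a1 and Col12a1 were highest in the Spp1 and Mmp13 cluster.

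Summed by subclass, the ratios between fibrillar chains separated odontoblast-like and odontoblast or osteoblast-like cells from pulp and follicle. Type I collagen is mostly a heterotrimer with more Col1a1 than Col1a2 product. The ratio of Col1a1 to Col1a2 UMIs was 1.2, 1.11, 0.986 and 0.904 in dental pulp-like cells and 1.37, 1.21, 1.27 and 1.08 in dental follicle-like cells. It was 8.68, 5.61, 7.15 and 8.57 in odontoblast-like cells (the Plac8 and Notum cluster) and 3.58, 4.07, 4.81 and 3.91 in odontoblast or osteoblast-like cells, and these ranges did not overlap those of pulp and follicle. The ratio of Col3a1 to Col1a1 moved the other way, from 0.659 to 0.845 in pulp and 0.573 to 0.810 in follicle to 0.00963 to 0.0311 in odontoblast-like and 0.000710 to 0.00391 in odontoblast or osteoblast-like cells. Perivascular-like cells were at the far end with 3.77 to 4.16. By single cluster the gap was less clear. Col1a1 to Col1a2 was 1.76 to 3.43 in the Tac1 and Lypd1 cluster, of no named subclass, and 2.19 to 3.98 in the Bglap and Bglap2 cluster. In the Ifitm1 and Slc12a1 cluster, also of no named subclass, Col3a1 to Col1a1 was 0.0217 in WT 2 and 0.126 to 0.702 in the other libraries. These ratios compare UMIs near the 3′ end of each gene and are read between classes, not as the number of chains in a protein. The odontoblast-like name came from a list that joins odontoblast and preodontoblast markers, so the Plac8 and Notum cluster can hold either. Of its cells 35.6% were scored as cycling.

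**Figure D3:**
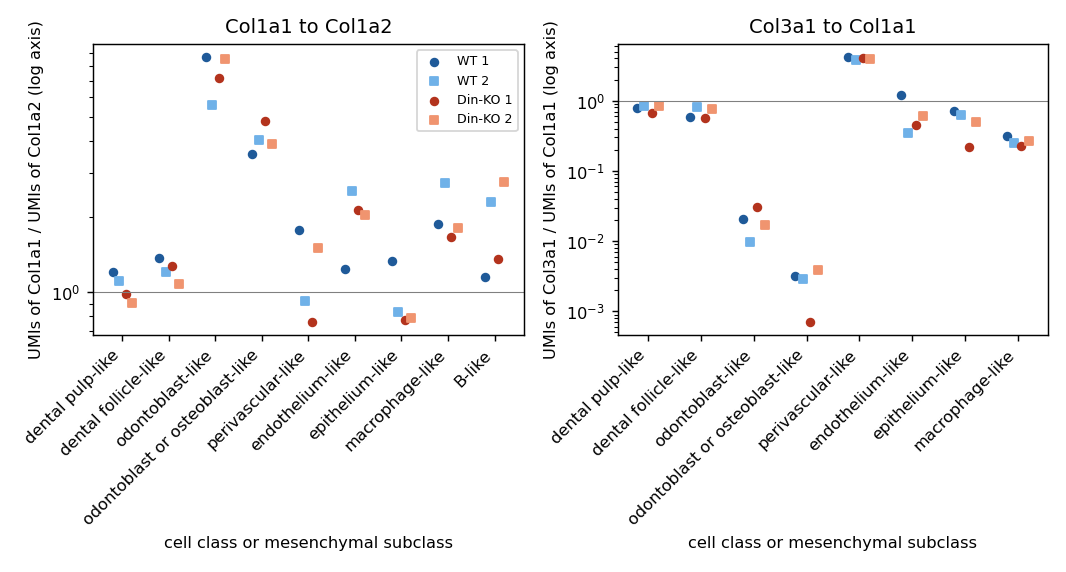
Ratio of Col1a1 to Col1a2 UMIs (left) and of Col3a1 to Col1a1 UMIs (right) on log axes, 1 point a library for each class or mesenchymal subclass, with a grey line at a ratio of 1. Odontoblast-like cells sat at 5.61 to 8.68 on the left and 0.00963 to 0.0311 on the right, apart from pulp and follicle in all 4 libraries.

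The Spp1 and Mmp13 cluster, a follicle-like cluster of 82, 40, 41 and 36 cells, had the highest level of 8 chains. Col3a1 stood there at 5136, 9730.3, 4836 and 13517 CPM. Col12a1, a FACIT chain of fibrils under tension, stood at 2733, 1956, 1791 and 2106 CPM against 205, 872, 304 and 951 CPM in the cluster next to it by mean among the 13, Bmp3 and Dkk2. Col5a1, a type V chain that limits fibril width, stood at 733, 998, 928 and 1296 CPM. The Spp1 and Mmp13 cluster was also the highest in all 4 libraries for Col16a1 (440.2 to 688 CPM), Col6a1 (466 to 944 CPM), Col6a3 (424 to 607 CPM), Col13a1 (98.0 to 192 CPM) and Col5a3 (45.2 to 89.1 CPM). Levels of Col12a1 were far lower in the odontoblast or osteoblast-like Dmp1 and Ifitm5 cluster, at 4.06 to 30.7 CPM. They were 8.33 to 114 CPM in the odontoblast-like Plac8 and Notum cluster. The Pdlim3 and Ltbp1 cluster, with 3 cells in WT 2, was not among the 13. It held 6.47, 0.936, 18.5 and 2.66% of the Col12a1 UMIs of mesenchyme-like cells, with 2.87, 0.355, 4.46 and 1.27% of those cells.

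Some of the remaining mesenchymal clusters had a small set of their own, and the others compared were highest for no chain in every library. The Cnmd and Gpha2 cluster, a pulp-like cluster of 319, 10, 222 and 8 cells, was highest for Col9a2 of the FACIT type IX at 547, 869, 588 and 898 CPM. The transmembrane Col25a1 stood there at 138, 289.8, 143 and 225 CPM and the type IV chain Col4a5 at 107, 167, 96.7 and 89.8 CPM. Its levels in WT 2 and Din-KO 2 rested on 10 and 8 cells. The pulp-like Smoc2 and Shisa2 cluster was highest for the type VIII chains, with Col8a1 at 825, 867, 743 and 329 CPM and Col8a2 at 158, 180.3, 143 and 154 CPM. In the Dmp1 and Ifitm5 cluster (26, 19, 29 and 18 cells) Col24a1 stood at 262, 355, 439 and 378 CPM and Col27a1 at 383, 729, 693 and 817 CPM. For Col24a1, a fibrillar chain of mineralising tissue, the range in every other cluster lay below this one. The follicle-like Bmp3 and Dkk2 cluster was highest for Col26a1 at 221, 204, 259.9 and 237 CPM and for Col6a4 at 2.16, 10.4, 23.4 and 10.3 CPM, the latter a level of 4, 37, 41 and 23 UMIs.

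FACIT chains were spread over the classes. Col12a1 and Col9a2 were highest in mesenchyme-like cells, at 268 to 625 and 125 to 303 CPM. Glia-like cells, the Schwann cells and their relatives around incisor nerves, were highest for Col16a1 at 225, 376, 239 and 312 CPM, and for Col20a1 at 48.4 to 422 CPM against at most 5.99 CPM in any other class. Epithelium-like cells were highest for Col9a3 at 126, 42.2, 124 and 212 CPM and for Col22a1, a chain of tissue junctions, at 18.2 to 149 CPM. Col14a1 was highest in glia-like cells in 3 libraries, and Col9a1 was highest in mesenchyme-like cells in 3. Col19a1 was near the limit, at 0.402 to 1.34 CPM in mesenchyme-like cells.

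Type IV collagen of the basement membrane was highest in cells of vessels. Col4a1 stood at 4093, 3923, 4232 and 4840.2 CPM in perivascular-like cells and 3173, 3825, 3279.6 and 3915 CPM in endothelium-like cells, against 90.3, 253, 90.5 and 177 CPM in mesenchyme-like cells. Perivascular-like cells were the highest in all 4 libraries, by 1.03 to 1.29 times the level in endothelium-like cells. Col4a2, its usual partner, was highest in endothelium-like cells in 2 libraries and in perivascular-like cells in the other 2, at 1822 to 2317 and 1888 to 2201 CPM. The ratio of Col4a1 to Col4a2 UMIs was 1.09 to 1.13 in mesenchyme-like, 1.60 to 1.78 in endothelium-like and 1.88 to 2.56 in perivascular-like cells. The other pairs of this family were low. Col4a5 stood at 23.2 to 57.9 CPM and Col4a6 at 2.90 to 16.5 CPM in mesenchyme-like cells, Col4a4 stayed at or under 23.0 CPM in every class, and Col4a3 had 18 UMIs in all kept cells, none of them in mesenchyme-like cells.

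Several of these chains are genomic neighbours, and some neighbours varied together across mesenchymal clusters. Col4a1 and Col4a2 lie head to head on chromosome 8 with annotated starts 21 bases apart, and Col4a6 and Col4a5 lie head to head on chromosome X with starts 1309 bases apart. Over 13 or 14 mesenchyme-like clusters in each library, the Spearman correlation was 0.92 to 0.96 for Col4a1 and Col4a2 and 0.75 to 0.96 for Col4a5 and Col4a6. It was 0.93 to 0.97 for Col6a1 and Col6a2, neighbours on 1 strand of chromosome 10, and 0.13 to 0.43 for Col3a1 and Col5a2, which meet tail to tail on chromosome 1. Chains of 1 type on different chromosomes also varied together in part. The correlation was 0.47 to 0.85 for Col1a1 and Col1a2 and 0.55 to 0.83 for Col8a1 and Col8a2. It was 0.53 to 0.77 for Col9a1 and Col9a2 and 0.05 to 0.30 for Col11a1 and Col11a2. On log2 levels the Pearson correlation of Col11a1 and Col11a2 was 0.54 to 0.63, and both were highest in the Bglap and Bglap2 cluster in all 4 libraries. The points of 1 library share its depth, so no p is given. Windows were sought for Col1a1, Col1a2, Col3a1, Col4a1 and Col4a2, which are among the chains with the highest levels. Col1a1 and Col3a1 gave none, which can mean no motif or no promoter sequence to search. The windows of Col1a2, Col4a1 and Col4a2 are below, and each holds a CCAAT box, a common promoter element bound by NF-Y. Each is 30 bases from the region before the RefSeq start (GRCm38.p6), read 5′ to 3′ on the strand of the gene, with the motif in capitals (ATTGG is CCAAT on the opposite strand).
Col1a2, chr6:4505497-4505526, plus strand: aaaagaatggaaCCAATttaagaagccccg
Col4a1, chr8:11312954-11312983, minus strand: tgcttgcccgggATTGGcgagccaaggggc
Col4a2, chr8:11312761-11312790, plus strand: ccgaggagctccCCAATttgttggcgctgc
CCAAT was searched on both strands in the 250 bases before each start. It was found for 13 of the 35 collagen genes with a promoter in the table (37.1%) and for 10133 of 27025 genes (37.5%), so collagen promoters held it about as often as others. The Col1a2 window lies within the gene span given earlier for Col1a2, whose annotated start is upstream of the RefSeq start. A match is a stretch of letters and not a measured binding site.

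Beaded filament collagen, type VI, forms microfibrils around cells and was highest in perivascular-like cells. Col6a1 stood there at 446, 493, 215 and 409.8 CPM, Col6a2 at 458, 571, 288 and 509 CPM and Col6a3 at 458, 612, 329 and 382 CPM. In mesenchyme-like cells they stood at 168 to 373, 128 to 242 and 140.2 to 226 CPM, and these classes overlapped for Col6a1 but not for Col6a2 or Col6a3. For Col6a3 the next class by mean was glia-like at 238 CPM, and its range overlapped that of perivascular-like cells. Col6a5 was highest in mesenchyme-like cells at 2.84 to 22.7 CPM, and Col6a4 and Col6a6 stayed at or under 2.56 and 3.54 CPM there. Of the hexagonal network chains, Col8a1, abundant in vessel walls, stood at 303, 1082, 507 and 354 CPM in perivascular-like cells and 55.7, 118, 95.1 and 133 CPM in mesenchyme-like cells. Col10a1, the chain of hypertrophic cartilage, had 21 UMIs in all. Col7a1, which builds the anchoring fibrils under epithelia, was highest in epithelium-like cells at 24.2, 18.8, 47.4 and 105 CPM.

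Transmembrane and multiplexin chains marked other classes. Col17a1, the hemidesmosome collagen of basal epithelium, stood at 186, 259, 239 and 304 CPM in epithelium-like cells and at most 12.5 CPM in any other class. Col13a1 was the single chain that was highest in endothelium-like cells in all 4 libraries, at 45.4, 57.5, 51.4 and 86.4 CPM. Col18a1, the basement membrane chain that yields endostatin, was highest in glia-like cells at 735, 840.3, 599.9 and 639 CPM against 348, 351, 251 and 275 CPM in endothelium-like cells. Col28a1, known from Schwann cells, stood at 441, 345, 444 and 366 CPM in glia-like cells and at most 9.21 CPM elsewhere. Col15a1, the other multiplexin, was divided between glia-like (166 to 307 CPM) and endothelium-like cells (181 to 273 CPM), with neither the higher in all 4 libraries. Col25a1 and Col26a1 were highest in mesenchyme-like cells, at 19.6 to 64.5 and 61.4 to 126 CPM, and Col23a1 had no class that led in all libraries. Glia-like levels rested on 14 to 45 cells a library.

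Some chains had no single class that was the highest in every library. Among them, Col5a2, a type V chain of most type I fibrils, stood at 442, 1477, 383 and 1215 CPM in mesenchyme-like and 328, 769, 443 and 338 CPM in perivascular-like cells, the former being the higher in 3 libraries. Col5a1 stood at 129, 425, 131 and 375 CPM and 198, 387, 95.9 and 227 CPM in these classes. The transmembrane Col23a1 stood at 159, 79.7, 144 and 62.0 CPM and 179.6, 87.5, 41.1 and 27.7 CPM, with ranges that overlapped. Col14a1, a FACIT chain of soft connective tissue, stood at 1.41 to 3.22 CPM in mesenchyme-like cells against 274, 57.6, 106 and 197 CPM in glia-like and 37.2, 152, 36.5 and 155 CPM in perivascular-like cells, where counts were 28, 15, 19 and 130 and 6, 33, 8 and 28 UMIs. Mesenchyme-like cells held 4.06 to 27.0% of its UMIs in a library, against 90.2 to 95.3% for Col5a2.

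Transcripts of Col1a1 and Col1a2 were also found in cells that should lack them, where free RNA in the droplets can be counted with the cell. B-like cells gave Col1a1 at 98.8, 329, 121 and 222 CPM and Col1a2 at 85.7, 143, 89.5 and 80.7 CPM. A Col1a1 UMI was found in 33.9, 81.8, 34.7 and 59.0% of B-like cells at a median depth of 3084, 3550, 2603.5 and 3427 UMIs, against 97.2, 99.8, 94.9 and 99.2% of mesenchyme-like cells at 9235.5, 15053, 7588 and 14085 UMIs. With each cell thinned to 2000 UMIs the shares were 21.8, 54.8, 20 and 38.8% and 82.3, 96.7, 78.7 and 93.0%. The level in B-like cells was higher in WT 2 and Din-KO 2, where mesenchyme-like cells also held more Col1a1, and it lay below the mesenchyme-like level in every library. Amelx, an enamel gene of ameloblasts, stood at 34.8, 1135, 168 and 767 CPM in the same B-like cells, so the floor was not one of collagen alone. Barcodes under 1000 genes held more, with Col1a1 at 1473, 3704, 1126 and 1869 CPM and a ratio of Col1a1 to Col1a2 of 1.79, 2.41, 1.57 and 2.19, against 1.15, 2.30, 1.35 and 2.75 in B-like cells.

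UMIs of Col1a1 were also found in the other blood cell classes. It stood at 319, 678, 257 and 955 CPM in macrophage-like, 230.2, 643, 75.3 and 209 CPM in neutrophil-like and 75.5, 147, 170.3 and 125 CPM in monocyte or dendritic-like cells, and macrophage-like cells were above B-like cells in all 4 libraries. The 5% of cells with the most Col1a1 held 48.3, 68.3, 46.1 and 88.8% of it in macrophage-like and 76.2, 72.1, 47.8 and 34.5% in neutrophil-like cells, against 44.8, 16.4, 30.4 and 21.8% in B-like cells. In macrophage-like cells of Din-KO 2 a single cell held 586 of 1036 Col1a1 UMIs, and in neutrophil-like cells of WT 2 a single cell held 220 of 534. In epithelium-like cells it stood at 185, 210.4, 112 and 334 CPM with a ratio to Col1a2 of 1.33, 0.833, 0.774 and 0.790. In WT 2 that ratio was 0.833 (exact binomial 95% interval 0.754 to 0.919), against 2.30 in B-like cells of the same library, and the interval lay below it. In WT 1 the order was the other way, at 1.33 against 1.15 in B-like cells. In Din-KO 1 and Din-KO 2 the ratio was 0.774 and 0.790 against 1.35 and 2.75. Endothelium-like cells stood at 123, 1758, 218 and 129 CPM, and the 5% of cells with the most Col1a1 held 61.6, 88.0, 79.5 and 43.8% of it, so the level of WT 2 was that of a few cells. Intervals cover counting error only.

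**Figure D4:**
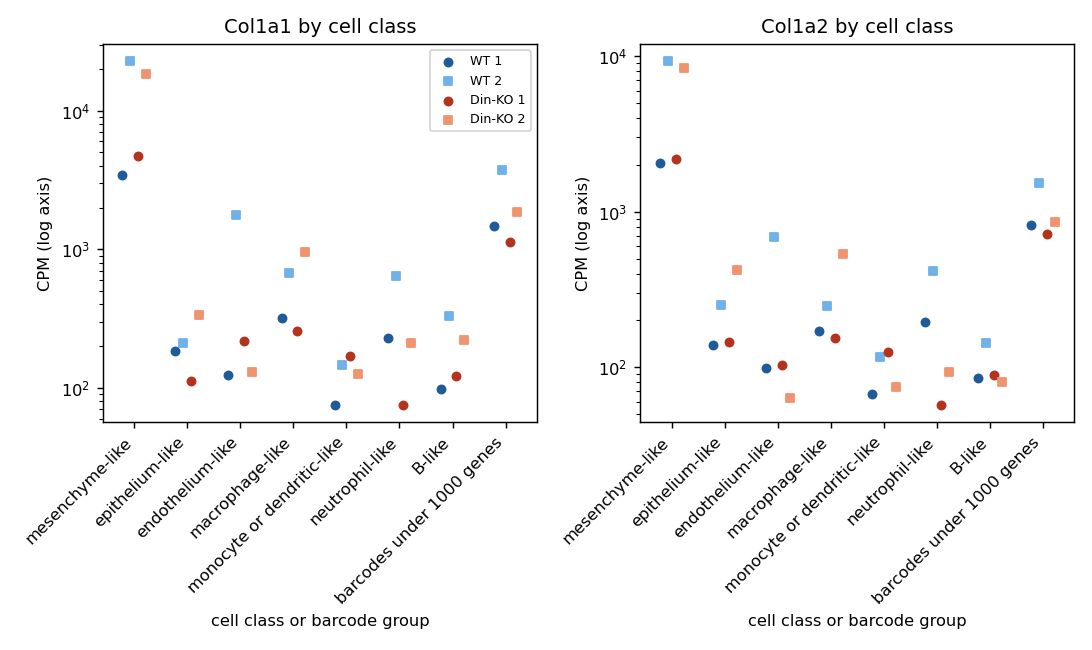
CPM (log axis) of Col1a1 (left) and Col1a2 (right) in each library, for mesenchyme-like cells, other classes and barcodes under 1000 genes, 1 point a library. Mesenchyme-like cells lay above all other classes for both chains, and B-like cells sat at 98.8 to 329 CPM for Col1a1.

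The genotypes were compared on UMIs summed per library, 2 WT against 2 Din-KO libraries, with the quasi-likelihood test of edgeR and Benjamini-Hochberg adjustment over all genes tested in a class at 0.05. In mesenchyme-like cells 41 of the 44 collagen genes passed the filter on low counts, Col4a3, Col10a1 and Col28a1 being left out, and no collagen gene was called by edgeR or by DESeq2. Among all 15290 genes edgeR called none either (percent called 0%), 151 had an unadjusted p under 0.05 (0.988%) and DESeq2 called 16 (0.105%). Col1a1 had a log2 fold change of -0.22 (SE 1.07, adjusted p = 1.00) and Col1a2 of -0.14 (SE 0.94, adjusted p = 1.00), Din-KO over WT, and these differences were smaller than their standard errors. Their direction was not stable, since Col1a1 was at 0.027 over cells with Xist and no Y-linked UMI, and at -0.99 without WT 1, 1.70 without WT 2, 0.48 without Din-KO 1 and -1.498 without Din-KO 2. For Col1a2 the values without each library in the same order were -0.82, 1.30, 0.55 and -1.39. Of the 41 chains 25 had lower and 16 higher estimates in Din-KO, with a median log2 fold change of -0.22 beside -0.02 over all genes. Without WT 2 the count turned to 11 lower and 31 higher (median 0.60) and without Din-KO 1 to 12 and 30 (median 0.24), while the median was -0.29 without WT 1 and -0.64 without Din-KO 2. Col15a1 was the 1 collagen gene that had an unadjusted p under 0.05, at 1.12, 0.923, 2.01 and 2.91 CPM after TMM scaling, a log2 fold change of 1.25 (SE 0.46, adjusted p = 1.00). Mesenchyme-like cells held 4.49, 3.62, 6.76 and 5.56% of its UMIs. Its log2 fold change ran from 0.891 with cells classed one by one to 1.53 without Din-KO 1, and was 0.894 with the highest Scrublet scores removed. The groups did not overlap for 4 chains, all higher in Din-KO (9.31% of all genes), and 0 chains were lower without overlap (8.56% of all genes).

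Within the dental pulp-like subclass 33 chains were tested and none was called by edgeR or by DESeq2, beside 2 of 13224 genes (0.0151%) by edgeR and 13 (0.0983%) by DESeq2. Unadjusted p was under 0.05 for 3 chains and for 1.66% of all genes. Col12a1 stood at 351, 382, 209 and 205 CPM (TMM-scaled, as are the CPM values of genotype tests below), with both Din-KO libraries below both WT libraries (log2 fold change -0.82, SE 0.23, adjusted p = 1.00). Col4a5 stood at 85.8, 76.1, 57.8 and 50.1 CPM, also without overlap (log2 fold change -0.58, SE 0.23, adjusted p = 1.00). Col2a1 stood at 1.52, 2.59, 5.83 and 9.42 CPM, higher in both Din-KO libraries (log2 fold change 1.93, SE 0.57, adjusted p = 1.00), a level of 21, 7, 71 and 16 UMIs. The make-up of the subclass by cluster also differed between the libraries. The Cldn10 and Trf cluster made up 43.0, 35.6, 24.8 and 18.1% of pulp cells and the Smoc2 and Shisa2 cluster 10.7, 17.1, 27.4 and 39.4%, so that the former was smaller and the latter larger in both Din-KO libraries. Before TMM scaling Col12a1 stood at 381, 545, 337 and 539.6 CPM in the Cldn10 and Trf, 119, 250.3, 43.4 and 114 CPM in the Smoc2 and Shisa2, 341, 360.2, 189 and 113 CPM in the Vcan and Grik1 and 289, 524, 188 and 344 CPM in the Cnmd and Gpha2 cluster. Within clusters both Din-KO libraries were below both WT libraries in the Smoc2 and Shisa2 and the Vcan and Grik1 clusters, and the groups overlapped in the other two. Col4a5 stood at 97.3, 128, 80.3 and 78.8 CPM in the Cldn10 and Trf, 51.3, 56.6, 36.3 and 27.2 CPM in the Vcan and Grik1 and 46.9, 42.4, 32.4 and 52.8 CPM in the Smoc2 and Shisa2 cluster. Both Din-KO libraries were below both WT libraries in the Cldn10 and Trf, the Vcan and Grik1 and the Cnmd and Gpha2 clusters, and the groups overlapped in the Smoc2 and Shisa2 cluster. The Cnmd and Gpha2 cluster held 10 cells in WT 2 and 8 in Din-KO 2, with as few as 6 Col4a5 UMIs in a library. The share of all genes with such an order within a cluster was not computed for either chain. The part of cluster make-up in the differences of the subclass was not tested. Of the Col2a1 UMIs, 20, 6, 67 and 15 were in the Vcan and Grik1 cluster. Counting every tested chain, 10 lay lower in both Din-KO libraries without overlap, where 11.2% of all genes did so, and 1 lay higher, where 12% did. Col1a1 and Col1a2 had log2 fold changes of -0.41 (SE 0.27) and -0.12 (SE 0.29) in pulp.

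In dental follicle-like cells 37 chains were tested and none was called by edgeR or by DESeq2. Over all genes edgeR called 0% and DESeq2 44 of 12826 (0.343%), and 2.04% of all genes had an unadjusted p under 0.05. Col9a1 was the 1 such chain, at 2.48, 3.85, 5.81 and 15.3 CPM with a log2 fold change of 1.72 (SE 0.57, adjusted p = 1.00). Its log2 fold change ran from 0.85 without Din-KO 2 to 2.27 without Din-KO 1. Of the 155 Col9a1 UMIs of Din-KO 2 in all classes, 17 were in 1 cell of the follicle-like Sfrp2 and Mgp cluster. Col1a1 had a log2 fold change of -0.15 (SE 0.37) and Col12a1 of -0.58 (SE 0.33). For 5 chains both Din-KO libraries were higher and for 4 both were lower, beside 11.5% of all genes each way. Without WT 2, edgeR called Col13a1 at a log2 fold change of -2.01, beside 0.143% of all genes, and without the filter on low counts it called Col13a1 and Col9a1, beside 0.719%. Whether the genotype difference itself differed between pulp and follicle was tested as an interaction over 13622 genes, a comparison added after the values were seen. No gene was called by edgeR, 410 genes had an unadjusted p under 0.05, and the chain with the smallest p was Col4a5 (difference of log2 fold changes 1.14, follicle minus pulp, SE 0.20, adjusted p = 1.00 by edgeR).

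**Figure D5:**
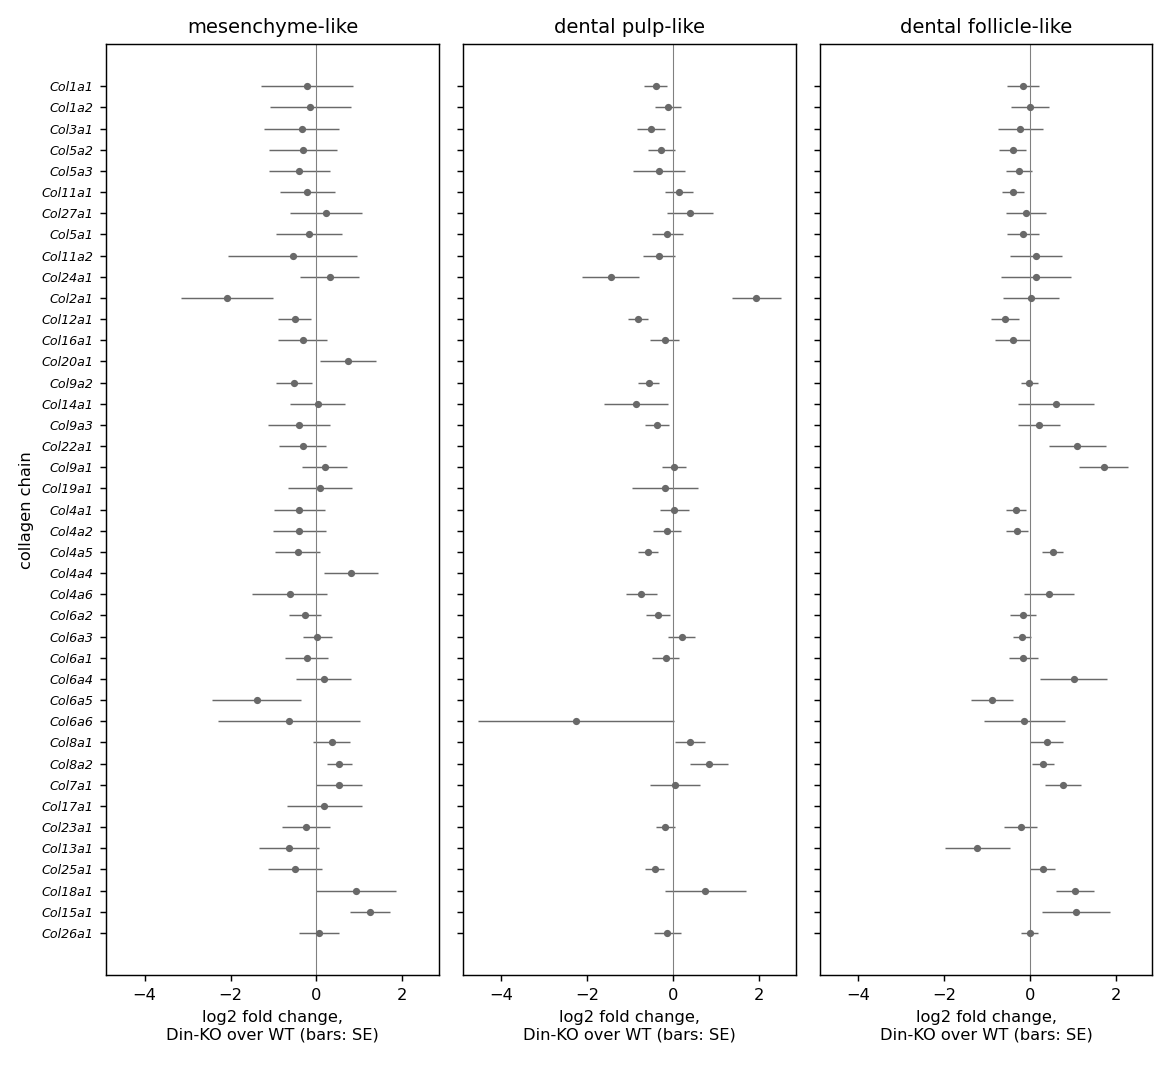
Log2 fold change, Din-KO over WT, of each tested collagen chain (rows) in mesenchyme-like, dental pulp-like and dental follicle-like cells, with bars of 1 standard error on each side and 2 libraries a group. Col1a1 stood at -0.22 with an SE of 1.07 in mesenchyme-like cells, wider than the SE of 0.27 in pulp and 0.37 in follicle, and no chain was called in any of the 3 panels.

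Odontoblast-like and odontoblast or osteoblast-like cells also gave no call among 21 collagen genes each by edgeR or by DESeq2. Over all genes edgeR called 0% in either subclass, and DESeq2 called 2 (0.0216%) in odontoblast-like and 1 (0.0111%) in odontoblast or osteoblast-like cells. In odontoblast-like cells, where 2.2% of all genes had an unadjusted p under 0.05, 3 chains did. Col3a1 stood at 101, 80.0, 145 and 155 CPM, higher in both Din-KO libraries (log2 fold change 0.72, SE 0.26). Before TMM scaling it stood at 99.6, 170, 57.8 and 252 CPM in macrophage-like and 62.1, 47.0, 7.90 and 16.1 CPM in B-like cells. The part of free RNA in the odontoblast-like level was not tested. Col12a1 stood at 103, 114, 52.9 and 8.57 CPM (log2 fold change -1.78, SE 0.65) and Col25a1 at 16.7, 16, 8.54 and 2.14 CPM (log2 fold change -1.54, SE 0.63), both lower in both Din-KO libraries, and the adjusted p was 1.00 for all 3. In odontoblast or osteoblast-like cells 0.542% of all genes had an unadjusted p under 0.05. Col22a1 stood there at 29.2, 19.4, 2.07 and 3.10 CPM (log2 fold change -3.16, SE 0.53, adjusted p = 1.00), a level of 25, 43, 3 and 5 UMIs. With so few UMIs in the Din-KO libraries, Col22a1 passed the filter on low counts through the WT libraries, so its being tested leaned to lower Din-KO levels. Without that filter edgeR called Col22a1 at a log2 fold change of -3.14, together with Col2a1, beside 0.295% of all genes. That call of Col22a1 rests on the same counts, and 519 of the 556 Col2a1 UMIs of WT 1 lay in 1 cell of this subclass. Col6a1 stood at 44.4, 40.1, 66.8 and 75.1 CPM (log2 fold change 0.75, SE 0.29, adjusted p = 1.00). Without WT 1, edgeR called Col12a1 and Col23a1 in odontoblast-like cells, beside 164 of 10090 genes (1.63%), and without WT 2 it called Col2a1 and no other gene (0.0106%) in odontoblast or osteoblast-like cells, where WT 1 then held the 1 cell rich in Col2a1 and stood for WT alone. In odontoblast-like cells 2 chains were higher and 5 lower without overlap of the groups, beside 13.7% and 12.7% of all genes. In odontoblast or osteoblast-like cells 2 were higher and 2 lower, beside 9.49% and 9.96%, and the values of Col22a1 and Col25a1 were those of few UMIs.

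Outside the mesenchyme no chain was called by edgeR, and DESeq2 called Col1a2 and Col3a1 in neutrophil-like cells, beside 35 of 6455 genes (0.542%). Over all genes edgeR called 0% in B-like, epithelium-like and neutrophil-like, 0.0537% in endothelium-like and 0.0728% in macrophage-like cells. In neutrophil-like cells, a blood cell class that should lack these chains, 7 of 10 tested chains had an unadjusted p under 0.05, all lower in Din-KO, where 8.72% of all genes had such a p. Without overlap of the groups 9 of the 10 were lower, beside 18% of all genes. A chain can pass the filter on low counts through the WT libraries alone. Without that filter 26 of 35 chains had lower and 9 higher estimates in Din-KO in neutrophil-like cells. Col1a1 stood at 278, 703, 71.6 and 193 CPM there (log2 fold change -1.89, SE 0.62, adjusted p = 0.386). Col12a1 had the smallest p, with 48.6, 67.1, 9.34 and 7.81 CPM (log2 fold change -2.74, SE 0.46, adjusted p = 0.305). Its counts were 25, 51, 6 and 6 UMIs, and a single cell held 42 of the 51 in WT 2. In B-like cells Col1a1 had a log2 fold change of -0.26 (SE 0.56). The source of collagen UMIs in blood cell classes was not tested. In endothelium-like cells 6 of 27 chains had an unadjusted p under 0.05, all lower in Din-KO, beside 3.12% of all genes, and 11 were lower without overlap, beside 12.6%. Col3a1 stood at 153, 584, 101 and 78.2 CPM there (log2 fold change -2.03, SE 0.58, adjusted p = 0.948), and WT 2 was far above the rest, as it was for Col1a1 in a few cells. Without WT 1, so that WT 2 stood for WT alone, edgeR called 12 chains in endothelium-like (1.28% of all genes) and 5 in neutrophil-like cells (0.858% of all genes), all lower in Din-KO, and without WT 2 it called none in either (0.424% and 1.46% of all genes). In epithelium-like cells Col11a1 stood at 43.5, 35.5, 138 and 108 CPM (log2 fold change 1.64, SE 0.32, adjusted p = 1.00) and Col7a1 at 21.3, 23.9, 43.5 and 105 CPM (log2 fold change 1.71, SE 0.51, adjusted p = 1.00), higher in both Din-KO libraries, beside 1.26% of all genes with a p under 0.05, and Col8a2 was the other such chain of 30. Without overlap 10 of the 30 were higher and 3 lower, beside 11.6% and 10% of all genes. In B-like cells Col3a1 and Col5a3 of 8 chains had a p under 0.05 (1.58% of all genes) and in macrophage-like cells Col9a2 of 24 (2.65%), each lower in both Din-KO libraries, beside 11.4% and 12.1% of all genes. Without WT 2 Col3a1 was called in B-like cells (0.748% of all genes), and without Din-KO 2 Col5a3 was (0.149%).

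Genes that fold, process and cross-link collagen, and its receptors, were taken from lists of 42 genes. By edgeR none was called in mesenchyme-like cells or in any mesenchymal subclass, and none in mesenchyme-like cells had an unadjusted p under 0.05. Of 19 folding and modification genes tested in mesenchyme-like cells 16 had lower estimates in Din-KO, with a median log2 fold change of -0.08, beside -0.02 over all genes. Of 5 cross-linking genes 4 were lower (median -0.05), of 8 propeptide processing genes 4 (median -0.01) and of 9 receptor genes 7 (median -0.30). The levels followed the fibrillar chains only in part. Plod2, a lysyl hydroxylase, stood at 1339, 1378, 1643 and 1665 CPM in the Dmp1 and Ifitm5 cluster against 588, 1048, 869.7 and 718 CPM in the Bglap and Bglap2 cluster, where Col1a1 was higher. The prolyl hydroxylase subunits P4ha1 (286 to 330.2 CPM), P4ha2 (586 to 780.1 CPM) and P4hb (404 to 805 CPM) were likewise highest in the Dmp1 and Ifitm5 cluster in all 4 libraries. Lox, a lysyl oxidase that cross-links fibrils, was highest in the Bglap and Bglap2 cluster at 571, 1317, 1097 and 1379 CPM, as was Bmp1, which removes the C-propeptide of fibrillar chains, at 297, 432, 343 and 551 CPM. Loxl2 stood at 221, 309.8, 329.7 and 574 CPM in the Spp1 and Mmp13 cluster. Among receptors, Itga1 (728 to 885 CPM) and Itgb1 (1202 to 1765 CPM), whose products form an integrin for type IV collagen, were highest in perivascular-like cells in all 4 libraries, as Col4a1 was.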

How the data were processed

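The deposited files of the 4 libraries hold raw UMI counts, which the authors made with Cell Ranger from 10x 3′ reads on mm10/GRCm38. Filters followed the study: 1000 genes or more, mitochondrial UMIs up to 10% and hemoglobin UMIs up to 3%. Seurat 5.3.0 integrated the libraries, and the cell cycle was regressed out afterwards, before clustering (2000 variable genes, 30 components, resolution 1), with collagens left out. Clusters were named from 3 or more detected markers. Scrublet called 0.221% of cells, too few to have worked, so doublets were not removed. Counts were summed per library and class and given as CPM. Classes with at least 20 cells in each library were tested in edgeR 4.0.16 (TMM, filterByExpr), with DESeq2 1.42.0 as an alternative. On simulated data edgeR recovered 0% of 2-fold, 0% of 4-fold and 83.5% of 16-fold changes in mesenchyme-like cells. In dental pulp-like cells it recovered 0% of 2-fold and 74% of 4-fold changes, and in dental follicle-like cells 0.5% and 73%. A gene that was not called is therefore not shown to be unchanged. With 2 libraries a group, the spread between libraries enters every standard error. The SE of edgeR values was the absolute log2 fold change divided by the square root of the F statistic of the test. Chains named in full were Col1a1, Col1a2, the up to 3 with the highest CPM among those highest in a class or cluster in every library, and those with an unadjusted p under 0.05 in a mesenchymal fit. Members and lists were chosen with earlier results of these data known. Coordinates came from GENCODE M21, sequences from RefSeq.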

Additional observations from a re-analysis of the deposited data

How the results depend on the processing

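Collagen calls depended on the block and on single libraries. The replicate numbers are shared by the groups, but the labels do not say that they mark a batch. Deviations of same-numbered libraries from their group means correlated at 0.79 in mesenchyme-like, 0.57 in dental pulp-like and 0.60 in dental follicle-like cells. With the replicate number as a block, edgeR called 1 collagen gene (Col9a2) and 139 genes in mesenchyme-like cells, and 16 collagen genes over the other classes and subclasses. These were Col2a1, Col3a1, Col4a5, Col8a2, Col9a2 and Col12a1 in pulp (beside 379 of 13224 genes), Col3a1, Col5a2 and Col6a3 in endothelium-like cells (209 of 11177), Col1a1, Col1a2, Col3a1 and Col12a1 in neutrophil-like cells (88 of 6455), Col8a1 and Col22a1 in odontoblast or osteoblast-like cells (40 of 9037) and Col12a1 in odontoblast-like cells (45 of 9266). Over all genes in mesenchyme-like cells DESeq2 called 16, no filter on low counts gave 7, and leaving out 1 library gave 2 to 5, where the main test called 0; for collagen genes leaving out 1 library gave 0. In the other classes and subclasses DESeq2 called 2 collagen genes, no filter gave 21 and leaving out 1 library gave 0 to 19, the 19 being without WT 1 and 3 without WT 2. Of the 21 without the filter, 11 were in endothelium-like (beside 217 of 18087 genes) and 5 in neutrophil-like cells (255 of 15227). Dental follicle-like cells held 2 (145 of 20155), odontoblast or osteoblast-like cells 2 (48 of 16273) and B-like cells 1 (24 of 15495). Col1a1 in mesenchyme-like cells, at a log2 fold change of -0.22, was at 0.037 with the block and 0.027 over Xist cells, and from -1.498 to 1.70 when 1 library was left out (0.48 without Din-KO replicate 1). Col1a2 ran from -1.39 to 1.30 (0.55 without Din-KO replicate 1). With cells classed one by one, 5 chains were highest in mesenchyme-like cells in all 4 libraries, in place of 13, when 14 classes were compared, and 7 when the same 9 classes were, a choice made after seeing the data, and the mean Col1a1 level in B-like cells was 497 CPM in place of 193 CPM. The cause of these changes was not tested. Libraries with few cells limit the levels of perivascular-like, glia-like and monocyte or dendritic-like cells and of the Bglap and Bglap2 and the Cnmd and Gpha2 clusters.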

Other observations

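Barcodes removed for hemoglobin above 3% also held collagen UMIs. Col1a1 stood there at 199, 826, 1053 and 365 CPM in WT 1, WT 2, Din-KO 1 and Din-KO 2, with a ratio of Col1a1 to Col1a2 of 1.31, 2.42, 5.0 and 1.30. The 5% of these barcodes with the most Col1a1 held 68.7, 82.4, 92.3 and 74.1% of it. Erythroid-like cells, found in the WT libraries alone, had Col1a1 at 25.3 and 56.8 CPM over 22 and 5 cells.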
